A study of Glycine max with 12 samples.

Results

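The effect of heat on soybean flowers that were already short of water was measured by RNA sequencing, as the difference between flowers of plants under water deficit combined with heat stress (WD+HS) and flowers of plants under water deficit alone (WD). The members were chosen by treatment alone, as the 3 WD+HS libraries and the 3 WD libraries, which are 6 of the 12 libraries of the study, and every measured gene was compared between them. Plants of Glycine max cultivar Magellan were exposed to the treatments for 10 d from the R1 stage, when flowering starts. WD+HS plants grew at a daytime 38 °C with watering held at 30% of what the plants could transpire. WD plants grew at a daytime 28 °C under the same watering rule, so that the rule is shared and temperature is the setting that differs. The paper reports a lower flower water potential in WD+HS than in WD, so the flowers were not at an equal water status. The part of that difference in the changes described here was not tested. The other 6 libraries came from well-watered plants under heat stress (HS, 38 °C) and from well-watered control plants (CT, 28 °C), and gave the heat effect without water deficit as a comparison. Each library was made from RNA of 30 to 40 closed flowers (stages II and III) pooled over 8 to 10 plants. Flowers were not dissected, each treatment had its own growth chamber, and treatment and chamber cannot be told apart. Sepals, petals, anthers, pollen and ovules are therefore mixed in each value, and in such bulk samples fewer cells of a type and less RNA per cell cannot be told apart.

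Heat unfolds proteins, and plant cells answer through heat shock transcription factors (HSFs), which bind the promoters of chaperone genes. The chaperones include small heat shock proteins of the HSP20 family, which keep unfolded proteins from aggregating, and the ATP-driven HSP70, HSP90 and HSP100 machines, which refold them with the help of DnaJ and BAG proteins. Water deficit acts largely through abscisic acid (ABA), a hormone made by 9-cis-epoxycarotenoid dioxygenases (NCEDs) and broken down by the CYP707A hydroxylases. Reproductive organs, pollen above all, are known as the heat-sensitive parts of crop plants, and pollen development draws on sugar import and on the remodelling of pectin in the cell wall.

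Totals ran between 14238012 and 16561166 counted reads in the WD+HS libraries, and between 14049107 and 18581718 in the WD libraries. Correlations of log2 values between libraries were 0.984 to 0.987 within WD+HS and 0.975 to 0.984 within WD, against 0.946 to 0.956 across the groups. WD replicate 1 stood apart from the other WD libraries on the second principal component (-22.9, against -1.84 and -8.56), on the side of the WD+HS libraries (-30.1 to -27.5). Several results are therefore also given without it, but not all, and other counts below may move when it is left out. Of the 19 genes whose descriptions name floral organs or pollen (MADS-box, AGAMOUS-like, YABBY, LEAFY and pollen allergen genes), all had reads in at least 1 of these 6 libraries. The summed level of the 17 that were tested was 322 to 355 CPM (read counts scaled to a common library size) in WD+HS and 224 to 259 CPM in WD. The 16 photosynthesis genes, taken as markers of green tissue, summed to 184 to 390 CPM in WD+HS flowers and 209 to 293 CPM in WD flowers, and each had reads in at least 1 of these libraries. The part of either marker list in the changes described here was not tested.

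Heat changed a large part of the flower transcriptome under water deficit. Of 38410 genes tested, 11592 (30.2%) passed an adjusted p of 0.05 in WD+HS against WD, of which 5280 (13.7% of all tested) were higher and 6312 (16.4%) were lower in WD+HS. Most changes were small, with a median log2 fold change of 0.58 among the genes that rose and -0.70 among those that fell, and the large ones were mostly falls. At a minimum of 2-fold, 1015 genes (2.64%) rose and 2221 (5.78%) fell, and at a minimum of 4-fold 253 rose and 746 fell. The WD+HS and WD libraries did not overlap in 10936 of the 11592 called genes, while 41.6% of all tested genes had groups that did not overlap. Calls became more frequent with expression level, being made for 14.6% of the 7682 genes with the lowest mean CPM and for 49.4% of the 7682 with the highest. By the chromosome named in the gene identifier, the share called lay between 28.9% and 32.5% on all 20 chromosomes. By limma on FPKM values 65.5% of the called genes were lower, against 54.5% by edgeR on counts, a comparison in which scale, test and filter all differ.

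By fold change, the largest rises among described genes were those of chaperone genes. Of the 10 described genes that rose most, among those called, averaging 5 CPM or more and with groups that did not overlap, 8 were HSP20-like small heat shock proteins, and the others were an HSFA2 and a BAG6 co-chaperone. The largest rise was that of GLYMA_10G176400, an HSP20-like gene, with 116, 100.2 and 101 CPM in the WD+HS libraries and 0.143, 0.11 and 0.269 CPM in the WD libraries, a log2 fold change of 9.22 ± 0.49 (SE, n = 3 each, adjusted p = 1.8e-17). It was close to silent without heat, since 2, 2 and 4 reads lay behind the WD values. GLYMA_08G068800 had 30.5, 27.8 and 27.8 CPM in WD+HS flowers and 0, 0.22 and 0 CPM in WD flowers, and the WD values came from 0, 4 and 0 reads, which leaves its log2 fold change of 8.28 ± 0.99 with a wide error. GLYMA_14G063800 had 141, 121 and 132 CPM under WD+HS and 1.21, 0.55 and 0.808 CPM under WD (log2 fold change 7.29 ± 0.34, adjusted p = 1.4e-14). In these 3 genes every WD+HS library was more than 10 times above every WD library, as it was in all 10 of the largest described rises.

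**Figure D1:**
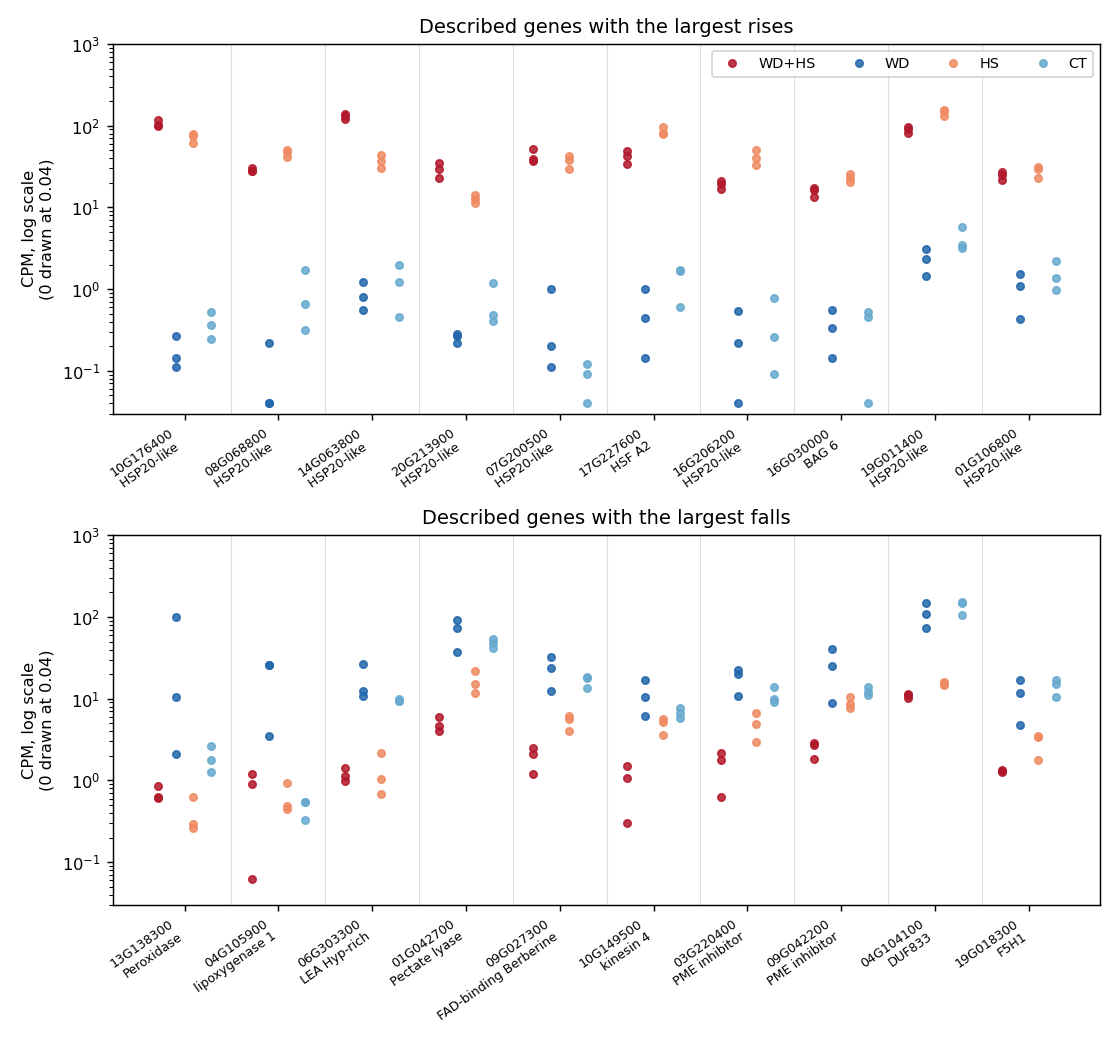
Normalised read counts (CPM) on a log axis in each of the 12 libraries for the 10 described genes with the largest rises (top) and the 10 with the largest falls (bottom) in WD+HS against WD at a mean of at least 5 CPM, with 1 point per library and WD+HS, WD, HS and CT from left to right within each gene. The rises are chaperone and HSF genes near 0 CPM in both unheated groups. In the falls the WD+HS points lie below all WD points, which the rule for naming required. The WD points of several of these genes spread over more than 3-fold.

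Small heat shock proteins rose as a family. Of 43 tested genes described as HSP20-like or class I to III heat shock proteins, 39 were higher in WD+HS and none was lower, with a median log2 fold change of 2.57 beside 0.0071 over all genes tested. These genes were described because the study had listed them for heat alone, from HS and CT libraries that do not enter this comparison, so a rise with heat is what put them on the list. Their summed level was 2032 to 2548 CPM in WD+HS and 498 to 778 CPM in WD. By length-scaled values the most abundant members in WD+HS were GLYMA_13G176300, at a mean of 451 FPKM in WD+HS and 132 FPKM in WD, and GLYMA_07G200200, at 434 FPKM in WD+HS and 139 FPKM in WD, and both were already abundant in unheated flowers. GLYMA_13G176300 had 418, 359 and 444 CPM in WD+HS libraries and 128, 93.7 and 123 CPM in WD libraries, a log2 fold change of 1.83 ± 0.11, while its neighbour by identifier GLYMA_13G176200 had 291, 217 and 304 CPM and 12.1, 10.1 and 13.7 CPM in the same groups, a log2 fold change of 4.50 ± 0.18. The abundant and the near-silent members were thus raised by very different factors. The 4 members that were not called included GLYMA_12G013100, a further abundant gene, at 227 FPKM in WD+HS and 236 FPKM in WD. Several of these genes have neighbouring identifiers, and how alike their sequences are was not measured. Any reads shared between them may have been divided by the authors' counting in a way that cannot be checked here.

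The large chaperones rose too, by less. All 9 tested HSP70, HSP90 and HSP100 genes listed for heat were higher in WD+HS, with a median log2 fold change of 1.11. Of the 3 listed only for water deficit none was higher and 1 was lower, the heat shock cognate 70-1 gene GLYMA_18G289100, at a log2 fold change of -2.16, named after its value was seen. GLYMA_17G072400, an HSP70B gene, had 178, 145 and 152 CPM in WD+HS flowers and 8.64, 9.9 and 9.16 CPM in WD flowers (log2 fold change 4.09 ± 0.13, adjusted p = 1.3e-14). The second HSP70B gene, GLYMA_02G205600, had 40.8, 29.7 and 42.4 CPM in WD+HS and 3, 3.14 and 7.07 CPM in WD, a log2 fold change of 3.11 ± 0.25. Neither gene had overlapping groups, which was a condition for naming them. Of 20 tested DnaJ, BAG and other co-chaperone genes listed for heat, 15 rose and none fell, with a median log2 fold change of 0.79, and of the 9 listed only for water deficit 1 rose and 1 fell. Without WD replicate 1, 15 of the 20 rose and 1 fell, and of the 9 none rose and 1 fell. BAG6, a BAG-domain protein known as heat-induced in Arabidopsis, was represented by GLYMA_16G030000 with 13.6, 16.4 and 17.4 CPM under WD+HS and 0.143, 0.55 and 0.337 CPM under WD, and by GLYMA_07G061500 with 17.1, 14.1 and 18.6 CPM under WD+HS and 1.21, 0.935 and 0.741 CPM under WD. Both BAG6 genes were above every WD library in every WD+HS library, again a condition for naming them. Their log2 fold changes were 5.43 ± 0.46 and 4.11 ± 0.31.

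The HSF genes themselves did not move as 1 group. Of 14 tested HSF genes listed for heat, 9 rose and none fell, with a median log2 fold change of 1.06, and the 1 member listed only for water deficit fell. Without WD replicate 1, 10 of the 14 rose and none fell. HSFA2 is known in Arabidopsis as the factor that sustains the heat response, and the 4 genes described as HSFA2 took different courses. GLYMA_17G227600 had 42.0, 33.7 and 48.4 CPM in WD+HS and 0.143, 0.44 and 1.01 CPM in WD, the largest rise of these 15 HSF genes (log2 fold change 6.27 ± 0.42, adjusted p = 2.3e-12). GLYMA_14G096800 had 40.7, 35.4 and 44.1 CPM in WD+HS and 13.4, 6.99 and 10.6 CPM in WD, with a log2 fold change of 1.97 ± 0.17. GLYMA_17G053700 had 8.56, 7.56 and 8.38 CPM in WD+HS and 4.64, 4.24 and 3.5 CPM in WD, with a log2 fold change of 0.98 ± 0.23. The fourth gene, GLYMA_04G052000, went the other way, at 16.0, 17.6 and 17.9 CPM in WD+HS flowers against 50.3, 21.8 and 32.9 CPM in WD flowers (log2 fold change -1.02 ± 0.21, adjusted p = 8.6e-04). It had been listed for water deficit from the same WD libraries, WD replicate 1 was its highest value, and without that library it remained lower at a log2 fold change of -0.65. HSFA1D, a constitutive master regulator in Arabidopsis, was higher at 5.99, 6.92 and 6.31 CPM in WD+HS (GLYMA_16G091800) and 2, 3.47 and 3.23 CPM in WD, a log2 fold change of 1.13 ± 0.26.

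Of the class A6 and A3 members, all but 1 were called higher and none lower. GLYMA_19G159500, an HSFA6B gene (a factor tied to ABA and drought in Arabidopsis), had 10.1, 9.96 and 11.9 CPM in WD+HS and 3, 3.58 and 3.23 CPM in WD (log2 fold change 1.70 ± 0.23). A second HSFA6B gene, GLYMA_10G029600, had 2.75, 4.17 and 2.43 CPM in WD+HS and 6.57, 3.3 and 3.23 CPM in WD, and its difference did not pass the test (adjusted p = 0.178). In HS flowers GLYMA_10G029600 was at 17.7, 18.6 and 19.5 CPM, against 7.75, 8.15 and 10.6 CPM in CT flowers, and its heat effect differed between the water regimes by -1.56 ± 0.34 on the log2 scale (adjusted p of the interaction 0.0109). Another HSFA6B gene, GLYMA_10G003100, was also called higher (log2 fold change 4.12 ± 1.32, adjusted p = 0.00308), on 1.12, 0.494 and 0.971 CPM in WD+HS and 1, 0 and 1 reads in the WD libraries. The HSFA3 gene GLYMA_03G191100, which in Arabidopsis acts downstream of the drought factor DREB2A, had 3.37, 5.23 and 5.04 CPM in WD+HS and 0.857, 1.65 and 2.29 CPM in WD (log2 fold change 1.50 ± 0.35), and its copy GLYMA_10G066100 stayed at or below 2.12 CPM in all 6 libraries with an adjusted p of 0.0328 that was lost without WD replicate 3 or WD+HS replicate 2. Of the class B factors, which lack an activation domain, the heat shock factor 4 gene GLYMA_01G185800 was higher at 13.1, 14.1 and 17.4 CPM in WD+HS and 12.1, 7.76 and 6.67 CPM in WD (log2 fold change 0.76 ± 0.19). Its copy GLYMA_11G056200 did not pass with all libraries (adjusted p = 0.124). Without WD replicate 1 that copy was called higher, at a log2 fold change of 0.73 (adjusted p = 0.0091). The HSFB4 gene GLYMA_14G083700 did not pass (adjusted p = 0.101). The HSFB2A genes GLYMA_20G156800 and GLYMA_10G237800 did not pass the test either, with log2 fold changes of 0.16 ± 0.17 and -0.22 ± 0.25. Both were called higher in HS against CT, at log2 fold changes of 0.99 and 0.71, but their interactions did not pass (adjusted p = 0.0601 and 0.166).

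ABA genes of opposite function were both among those that rose. Of 6 tested ABA genes listed for heat 5 rose and none fell, and of 10 listed only for water deficit 4 rose and 1 fell. Genes listed for water deficit were chosen on the same WD libraries that enter this comparison. Of the synthesis genes, the NCED3 gene GLYMA_15G250100 had 73.1, 62.9 and 55.4 CPM in WD+HS flowers and 20.1, 15.5 and 18.6 CPM in WD flowers (log2 fold change 1.83 ± 0.12, adjusted p = 1.3e-09). The second NCED3 gene, GLYMA_08G176300, had 39.6, 46.8 and 36.1 CPM in WD+HS and 13.4, 13.0 and 13.6 CPM in WD (log2 fold change 1.61 ± 0.12). Both were well above WD in every WD+HS library. The NCED5 gene GLYMA_08G096200 was lower, at 39.7, 45.5 and 34.7 CPM in WD+HS and 60.8, 54.3 and 58.9 CPM in WD (log2 fold change -0.54 ± 0.096, adjusted p = 2.1e-04), again with no overlap. Both CYP707A4 genes, for breakdown enzymes, were higher too, GLYMA_07G212700 having 57.9, 62.3 and 76.1 CPM in WD+HS and 7.5, 6.33 and 5.25 CPM in WD, and GLYMA_02G132200 having 128, 131 and 128 CPM in WD+HS and 43.8, 37.3 and 32.1 CPM in WD, with log2 fold changes of 3.37 ± 0.13 and 1.78 ± 0.099. The less expressed CYP707A1 gene GLYMA_16G109300 rose by 2.13 ± 0.38 on the log2 scale, at 4.93, 3.6 and 4.01 CPM in WD+HS and 0.643, 0.99 and 1.21 CPM in WD, whereas the second CYP707A1 gene, GLYMA_01G153300, did not pass the test (log2 fold change -0.40 ± 0.43, adjusted p = 0.527). The ARM repeat gene GLYMA_07G093200, whose product binds the ABA factor ABF2, was higher by 1.24 ± 0.27 on the log2 scale, and an ABA-responsive GRAM gene, GLYMA_10G287300, was called higher on 0.312, 0.494 and 0.668 CPM in WD+HS and 0, 0 and 1 reads in WD. The zeaxanthin epoxidase GLYMA_11G055700 (ABA1, an early step of synthesis) missed the threshold at an adjusted p of 0.0537. The AFP3 gene GLYMA_01G060300 and the ABI1-like phosphatase GLYMA_15G172500, which damp ABA signalling, passed narrowly (adjusted p = 0.0467 and 0.0429) and both missed the threshold without WD replicate 1 (adjusted p = 0.121 and 0.103), which left 2 of the 10 genes listed for water deficit higher.

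**Figure D2:**
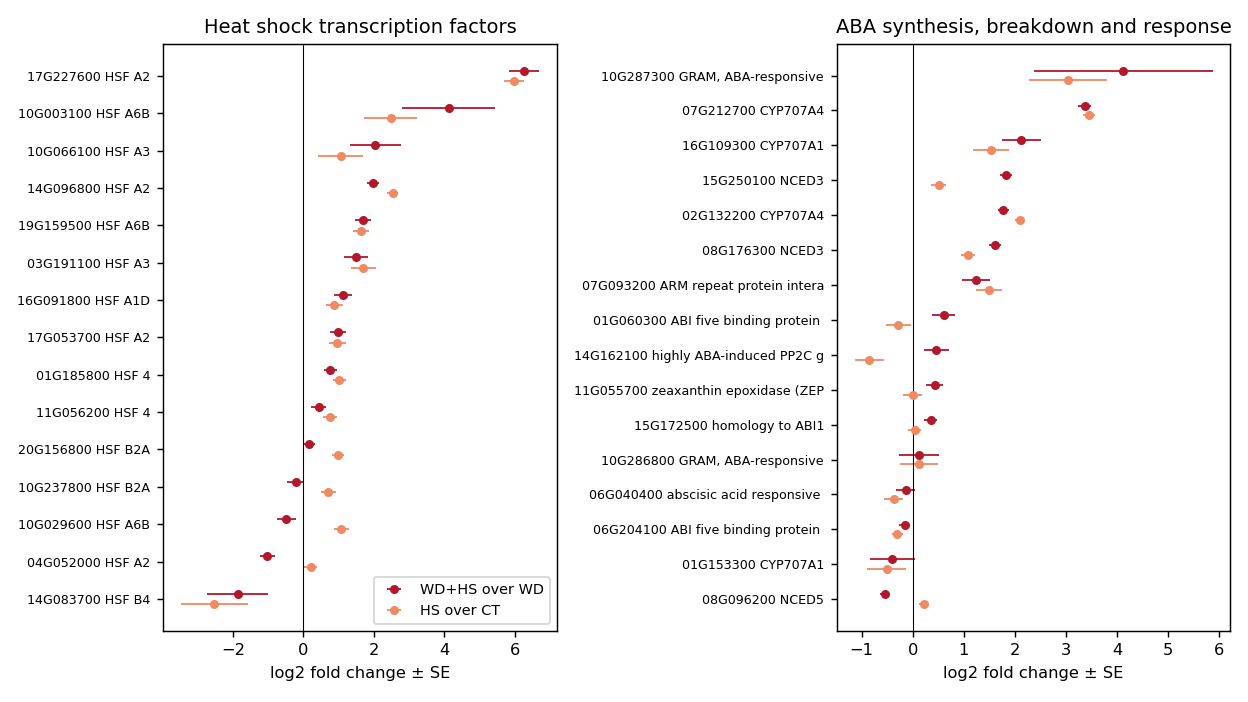
Log2 fold changes with standard errors for all 15 tested HSF genes (left) and 16 ABA genes (right), WD+HS over WD in dark red above HS over CT in orange, ordered by the WD+HS over WD value. Among the HSF genes 10G029600 and 04G052000 lie to the left of their value in well-watered flowers, and among the ABA genes the NCED3 gene 15G250100 lies to the right of it and the NCED5 gene 08G096200 to the left. The other interactions shown did not pass the test, which does not show equal effects.

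In other groups listed for heat, fewer members were called. Of the 1786 described genes from the heat lists, 1585 had been listed as raised by HS, so a rise with heat is again largely built into these counts, beside 13.7% of all genes tested. Of 22 sugar and starch genes 14 rose and none fell, of 22 aquaporin and ion transport genes 12 rose and none fell, and of 23 light, clock and flowering genes 15 rose and none fell, with median log2 fold changes of 0.86, 0.93 and 0.69. The members listed only for water deficit had 3 rises and 8 falls among 19 sugar and starch genes and 1 rise and 4 falls among 11 aquaporin and ion transport genes. Phototropin 1, a blue light receptor, was higher in both of its listed copies, GLYMA_13G330400 at 92.9, 96.0 and 93.3 CPM in WD+HS and 58.6, 41.5 and 32.5 CPM in WD, and GLYMA_12G074100 at 31.0, 30.0 and 28.5 CPM in WD+HS and 18.6, 17.4 and 10.4 CPM in WD. The vacuolar aquaporin TIP1;3, GLYMA_11G143100, which in Arabidopsis is a pollen aquaporin, had 9.12, 11.8 and 9.65 CPM in WD+HS and 2.71, 1.49 and 1.95 CPM in WD (log2 fold change 2.32 ± 0.36). Galactinol synthase 1, GLYMA_10G145300, the first enzyme of raffinose synthesis and a known HSF target in Arabidopsis, had 11.6, 11.0 and 14.1 CPM in WD+HS and 0.857, 0.495 and 1.15 CPM in WD (log2 fold change 3.89 ± 0.35). In all 4 genes the groups did not overlap, as the rule for naming them required.

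By amount of transcript, the largest rise among the described genes open to naming was not in a chaperone. It was that of fatty acid desaturase 2, GLYMA_03G144500, which makes linoleic acid. It had 866, 921 and 831 CPM in WD+HS and 267, 386 and 342 CPM in WD, a log2 fold change of 1.40 ± 0.093. An Ntn hydrolase gene, GLYMA_14G086300, had 639.6, 668 and 748 CPM in WD+HS and 341, 299 and 394 CPM in WD, and an S-adenosylmethionine synthetase gene, GLYMA_17G039100, which supplies methyl groups and the ethylene precursor, had 517, 485 and 475 CPM in WD+HS and 230.0, 247 and 230.0 CPM in WD. These abundant genes changed by about the same factor, with log2 fold changes of 0.99 ± 0.086 and 1.06 ± 0.067. Less abundant genes that rose included glutathione S-transferase TAU 8, GLYMA_07G139700, a detoxifying enzyme, by 2.23 ± 0.21, lipoxygenase 2, GLYMA_12G054700, an enzyme of jasmonate synthesis, by 1.48 ± 0.11, and rubisco activase, GLYMA_03G068100, the heat-labile chaperone of rubisco, by 1.42 ± 0.19 on the log2 scale.

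The falls named here, like the rises, are limited to called genes that averaged 5 CPM or more without overlap of the groups, and several scarcer genes fell further by the fit. The 2 largest falls so limited were uneven among the WD libraries. The peroxidase GLYMA_13G138300 had 0.624, 0.848 and 0.607 CPM in WD+HS and 98.8, 2.09 and 10.6 CPM in WD, so that its log2 fold change of -5.73 ± 1.13 rested on WD replicate 1 and was -3.16 without it (adjusted p = 4.8e-05). GLYMA_13G275700, which has no description in the tables used, had 0, 0.565 and 0.121 CPM in WD+HS and 4.07, 19.4 and 11.0 CPM in WD (log2 fold change -5.70 ± 0.96). Lipoxygenase 1, GLYMA_04G105900, had 0.0624, 1.2 and 0.91 CPM in WD+HS and 3.5, 26.0 and 25.9 CPM in WD (log2 fold change -4.69 ± 0.65, adjusted p = 5.9e-06), and here WD replicate 1 was the low one. No gene of these 3 overlapped between the groups, as the limit given above required.

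Of the named genes that fell, 4 have descriptions that name pectin or pectate. Pectate lyase GLYMA_01G042700, which cleaves pectin, had 5.99, 4.59 and 4.07 CPM in WD+HS flowers and 37.1, 91.5 and 74.4 CPM in WD flowers (log2 fold change -3.79 ± 0.28, adjusted p = 3.1e-09). The others share the description invertase or pectin methylesterase inhibitor superfamily, which does not tell whether they act on pectin methylesterase. Of these, GLYMA_03G220400 had 0.624, 1.77 and 2.18 CPM in WD+HS and 10.7, 22.5 and 20.1 CPM in WD. GLYMA_09G042200 had 2.87, 2.68 and 1.82 CPM in WD+HS and 8.93, 41.0 and 25.3 CPM in WD. The most abundant such gene, GLYMA_19G231500, had 25.4, 32.5 and 33.9 CPM in WD+HS and 58.7, 149 and 119 CPM in WD. All 4 genes were lower in every WD+HS library than in any WD library, as the rule for naming them required. In each of them WD replicate 1 was the lowest WD library. Over the 71 tested cell wall genes listed only for water deficit, 41 fell and 6 rose (median log2 fold change -0.59), whereas of the 55 listed for heat 18 fell and 16 rose (median 0.54). The first of these lists was chosen with the WD libraries, so its direction here is not independent of them, and without WD replicate 1 it had 38 falls and 5 rises.

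Transport genes and enzymes of other pathways were also among the named falls, although the heat-listed aquaporin and ion transport genes above held no fall. GLYMA_17G103700, H(+)-ATPase 8, a plasma membrane proton pump that is pollen-expressed in Arabidopsis, had 6.87, 10.9 and 10.2 CPM in WD+HS and 30.2, 59.2 and 45.7 CPM in WD (log2 fold change -2.28 ± 0.21). GLYMA_16G157000, sucrose-proton symporter 2, a sugar importer, had 6.18, 5.65 and 6.25 CPM in WD+HS and 18.9, 35.5 and 35.4 CPM in WD (log2 fold change -2.31 ± 0.19). The MtN3-type sugar transporter GLYMA_18G295100 had 2.25, 2.26 and 2.18 CPM in WD+HS and 9.93, 9.57 and 11.1 CPM in WD (log2 fold change -2.19 ± 0.25). All 3 transport genes were lower in every WD+HS library than in any WD library, as the rule for naming them required. Flavonol synthase 1, GLYMA_06G110600, had 4.81, 8.19 and 6.8 CPM in WD+HS and 14.6, 42.4 and 34.8 CPM in WD (log2 fold change -2.23 ± 0.28), and ferulic acid 5-hydroxylase 1, GLYMA_19G018300, of lignin synthesis, had 1.31, 1.27 and 1.34 CPM in WD+HS and 4.71, 16.8 and 11.9 CPM in WD (log2 fold change -3.09 ± 0.39). Log2 fold changes of -3.56 for kinesin 4 (GLYMA_10G149500, a microtubule motor), -3.56 for a FAD-binding berberine enzyme (GLYMA_09G027300) and -3.83 for a hydroxyproline-rich LEA glycoprotein (GLYMA_06G303300) completed the 10 largest described falls at this level together with -3.35 for a DUF833 protein (GLYMA_04G104100).

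By amount of transcript, 3 large and even falls stood out. An ACC oxidase (ethylene-forming enzyme, the last step of ethylene synthesis), GLYMA_15G112700, had 90.6, 87.4 and 80.2 CPM in WD+HS and 328, 325 and 299 CPM in WD, a log2 fold change of -1.88 ± 0.096. A lipid-transfer protein, GLYMA_18G294200, had 73.3, 66.6 and 74.5 CPM in WD+HS and 284, 292 and 271 CPM in WD, a log2 fold change of -1.98 ± 0.074. A polygalacturonase-inhibiting protein, GLYMA_15G209300, which protects pectin from fungal enzymes, had 94.7, 94.0 and 86.0 CPM in WD+HS and 213, 218 and 184 CPM in WD, a log2 fold change of -1.16 ± 0.086. In these 3 genes the replicates of each group lay within a narrow band and the groups were far apart. The second ACC oxidase, GLYMA_09G008400, had 5.93, 5.93 and 6.19 CPM in WD+HS and 74.3, 27.0 and 26.2 CPM in WD, and its log2 fold change of -2.81 ± 0.30 was -2.13 without WD replicate 1. The histone genes GLYMA_11G130900 and GLYMA_05G188600 had log2 fold changes of -1.61 ± 0.13 and -1.74 ± 0.22, while 11 of the 21 tested histone and chromatin genes listed for heat rose and 6 fell.

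**Figure D3:**
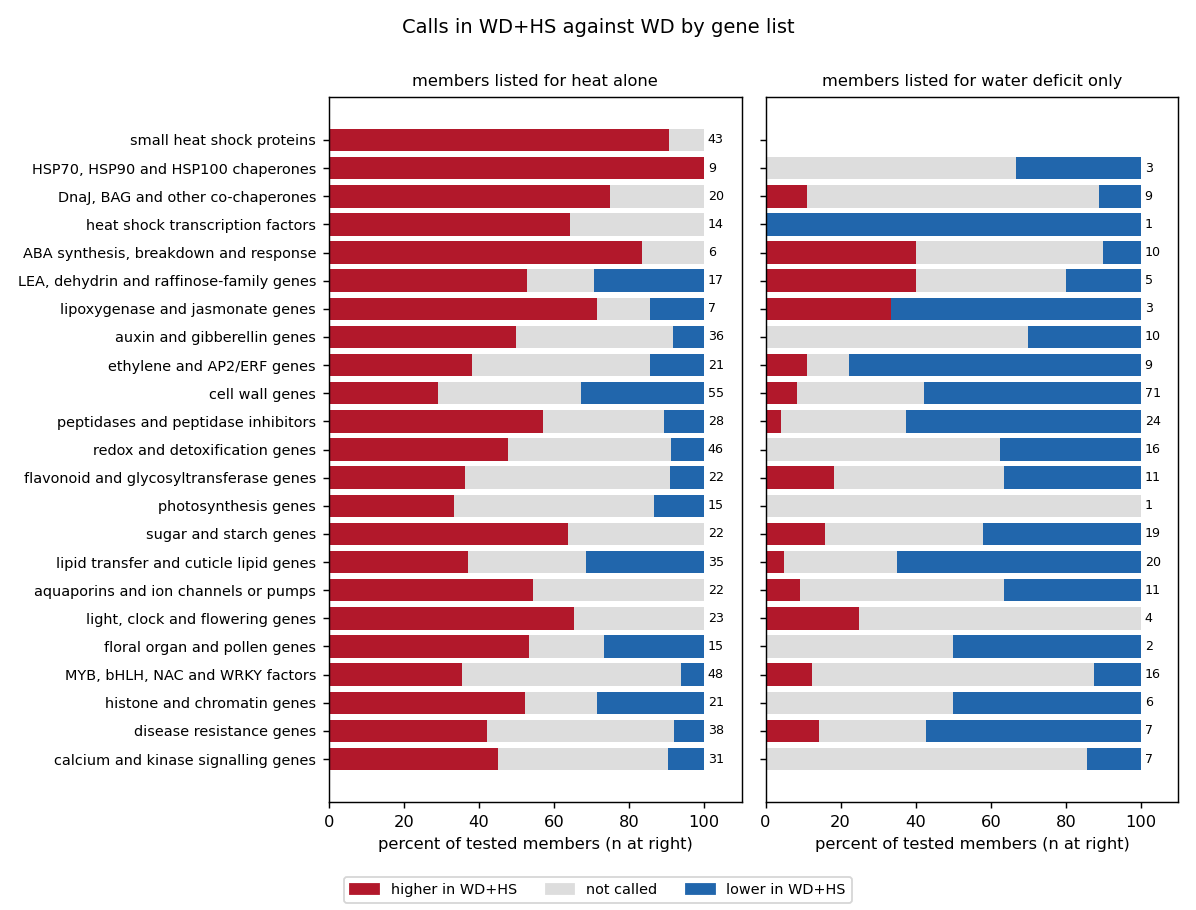
Share of the tested members of 23 gene lists that were called higher (red), not called (grey) or called lower (blue) in WD+HS against WD, for members listed by the study for heat alone (left) and for water deficit only (right), with the number tested beside each bar. On the left 39 of 43 small heat shock protein genes, 9 of 9 large chaperone genes and 15 of 20 co-chaperone genes are red, whereas cell wall, peptidase and lipid lists on the right are mostly blue, beside 13.7% of all genes higher and 16.4% lower.

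Lists of signalling and of flower genes were divided. Of 15 tested floral organ and pollen genes listed for heat, 8 rose and 4 fell, among them the YABBY gene GLYMA_05G056000 (a family that sets the outer face of floral organs) at 10.9, 10.2 and 10.6 CPM in WD+HS and 3.64, 3.91 and 3.57 CPM in WD, and the pollen Ole e 1 allergen gene GLYMA_09G043500 at 9.74, 9.18 and 10.7 CPM in WD+HS and 29.9, 14.5 and 25.3 CPM in WD. Of 9 ethylene and AP2/ERF genes listed only for water deficit 7 fell and 1 rose, of 24 peptidase genes 15 fell and 1 rose, and of 20 lipid transfer and cuticle lipid genes 13 fell and 1 rose, beside 16.4% of all genes lower. Without WD replicate 1 the ethylene and AP2/ERF genes had 7 falls and no rise, the peptidase genes 13 falls and 2 rises, and the lipid genes 10 falls and 2 rises. The members listed only for water deficit were listed from the WD libraries that enter this comparison. The heat-listed members of the same groups had, with all libraries, 8 rises and 3 falls among 21 ethylene and AP2/ERF genes, 16 rises and 3 falls among 28 peptidase genes and 13 rises and 11 falls among 35 lipid genes. Gibberellin-regulated genes went both ways, GLYMA_14G087200 having 17.0, 14.7 and 15.2 CPM in WD+HS and 3.14, 2.2 and 2.49 CPM in WD, and GLYMA_04G179500 having 5.62, 7.06 and 8.01 CPM in WD+HS and 48.3, 28.9 and 36.0 CPM in WD. Pathogenesis-related 4, GLYMA_19G245400, an antifungal chitin-binding protein, had 4.5, 5.37 and 5.1 CPM in WD+HS and 26.9, 31.6 and 34.3 CPM in WD. Of the MYB, bHLH, NAC and WRKY genes listed for heat, 17 of 48 rose and 3 fell.

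Whether water deficit altered the heat effect was examined with the same fit by comparing it with HS against CT, a contrast of other libraries. In HS against CT 12230 genes (31.8%) were called, 6096 (15.9%) higher and 6134 (16%) lower, and at a minimum of 2-fold 1337 rose and 1376 fell. The falls of at least 2-fold were thus 2221 in water-deficit flowers and 1376 in well-watered ones, and the rises 1015 and 1337. Of the genes called in WD+HS against WD, 63.6% were also called in HS against CT, and 60.3% of the HS against CT calls were also made under water deficit. Called in both were 7372 genes, of which 3475 were higher in both, 3829 lower in both and 68 opposite. The difference itself passed the test in 1132 genes (2.95%), with 191 positive (0.497%) and 941 negative (2.45%) interactions, a positive value meaning a heat effect that was more positive under water deficit. The positive count moved with single libraries, to 347 without WD replicate 1, to 102 and 113 without CT replicates 1 and 2, and to 111, 111 and 102 without HS replicates 1, 2 and 3. Of the 4220 genes called only in WD+HS against WD, 691 had an interaction, so that most of them cannot be said to respond to heat only when water is short.

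**Figure D4:**
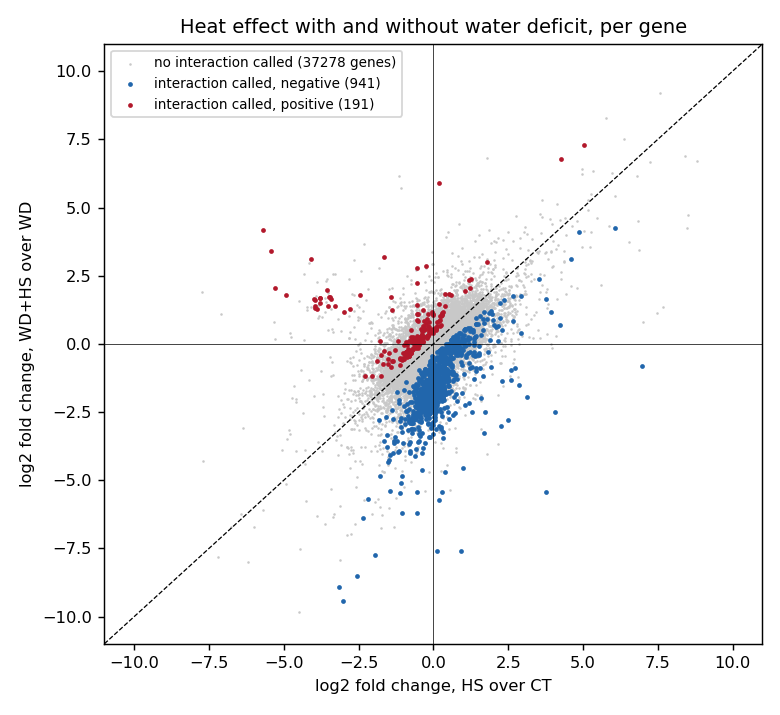
Log2 fold change of each of the 38410 tested genes in WD+HS over WD (vertical) against HS over CT (horizontal), with genes whose heat effect differed between the water regimes in blue (941 negative) and red (191 positive) and the line of equal effects dashed. Blue points lie mostly near 0 on the horizontal axis and below 0 on the vertical axis, and the group of red points left of -2.5 consists largely of the genes that were high in WD+HS replicate 3 and in CT replicates 1 and 2.

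The largest class of genes with an interaction was lower in WD+HS than in WD. It held 777 genes called lower in WD+HS against WD with a negative interaction, at a median log2 fold change of -1.80, and 646 of them were not called in HS against CT. Their summed level was 12263 to 13473 CPM in WD+HS, against 21940.4, 36380 and 32641 CPM in WD replicates 1 to 3, and it was 23807 to 29048 CPM in HS and 24760 to 27927 CPM in CT. In 687 of the 777 genes the WD mean was above the CT mean, and in 760 the WD+HS mean was below the CT mean. These counts, and the 646 not called in HS against CT, follow in part from choosing the 777 genes on the same values. In HS against CT 31.8% of all genes tested were called, and shares over all genes were not counted for the means. WD replicate 1 was the lowest WD library in 644 of the 777 genes, compared with 14078 of all 38410 genes. Without that library the negative interactions numbered 1234. A description was at hand for 98 of the genes, 82 of them from the lists for water deficit.

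Among the named genes this pattern was clear in sucrose-proton symporter 2 (GLYMA_16G157000), which had 20.1, 20.0 and 23.8 CPM in HS and 22.3, 21.9 and 19.2 CPM in CT, with log2 fold changes of -2.31 ± 0.19 in water-deficit and 0.011 ± 0.17 in well-watered flowers and an interaction of -2.33 ± 0.25 (adjusted p = 8.0e-05). H(+)-ATPase 8 (GLYMA_17G103700) had log2 heat effects of -2.28 ± 0.21 under water deficit and -0.30 ± 0.20 in well-watered flowers, and flavonol synthase 1 (GLYMA_06G110600) had -2.23 ± 0.28 and 0.11 ± 0.25 in the same order. Kinesin 4 (GLYMA_10G149500) and the invertase or pectin methylesterase inhibitor gene GLYMA_09G042200 had interactions of -3.07 ± 0.52 and -2.91 ± 0.49. Lipoxygenase 1 (GLYMA_04G105900) had 0.452, 0.932 and 0.491 CPM in HS and 0.326, 0.543 and 0.545 CPM in CT, and its interaction was -5.07 ± 1.06. In each of these 6 genes the WD+HS libraries were below all WD libraries, as the rule for naming them required. All 6 had been listed by the study as raised by water deficit, from the same WD and CT libraries. A high WD value, and with it a negative interaction, is thus partly built into their choice.

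Outside the rule for named genes, and chosen after their values were seen, 3 WRKY40 genes (a pathogen and wound response factor in Arabidopsis) had heat effects of opposite sign. GLYMA_17G222300 had log2 fold changes of -3.01 in WD+HS against WD and 2.25 in HS against CT, GLYMA_14G102900 had -3.27 and 1.71, and GLYMA_17G222500 had -1.31 and 2.59. Their CPM values in WD+HS and WD were 0.312, 0 and 0.0607 against 2.36, 0.605 and 0.337 for GLYMA_17G222300, and 0.187, 0.212 and 0 against 1.43, 0.605 and 1.95 for GLYMA_14G102900. A jasmonic acid carboxyl methyltransferase gene, GLYMA_02G054200, which makes the volatile form of jasmonate, had -2.48 and 1.72 in the same contrasts. It had at most 3 reads in each WD+HS library and 0.571, 0.66 and 1.01 CPM in WD, so that its fall rests on few reads. Callose synthase 5, GLYMA_04G213100, which in Arabidopsis builds the callose wall around developing pollen, was chosen in the same way and had a log2 fold change of -1.78 in WD+HS against WD and 0.28 in HS against CT.

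**Figure D5:**
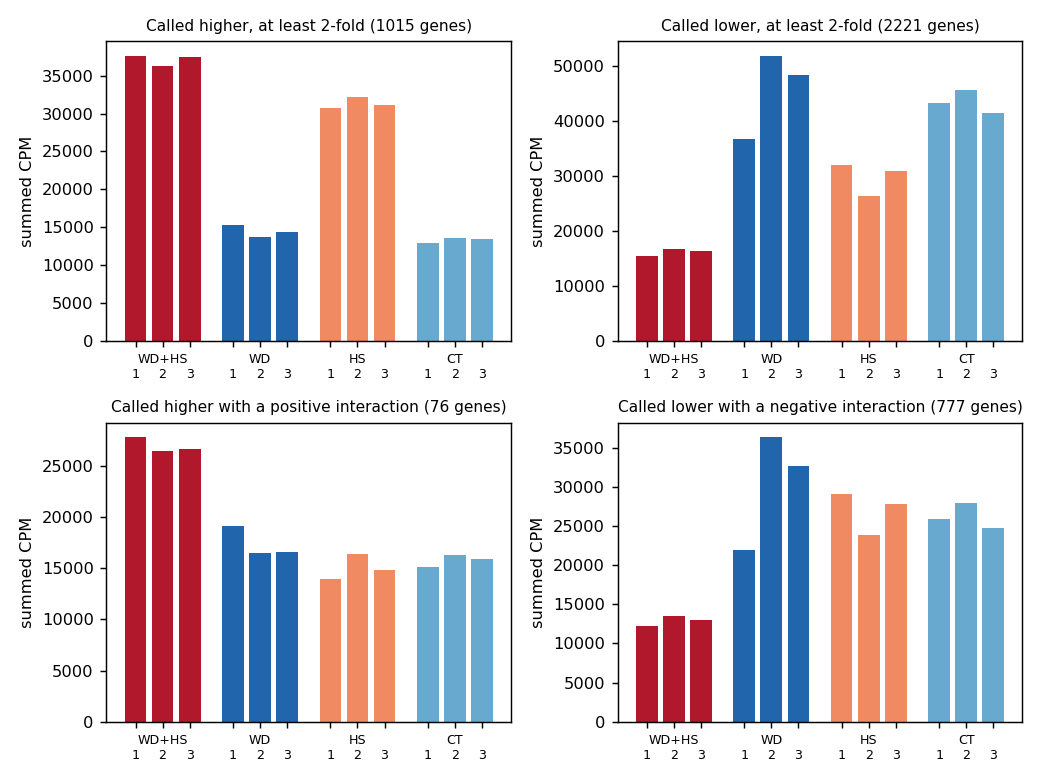
Summed normalised read counts (CPM) of 4 gene sets in each of the 12 libraries (bars, replicate numbers below, groups WD+HS, WD, HS and CT from left to right). All sets were chosen by the comparison of WD+HS with WD. The sets with an interaction were chosen also by the interaction, which uses the HS and CT libraries too. The 777 genes with a negative interaction are lowest in the 3 WD+HS libraries and similar in HS and CT, which follows in part from that choice. WD replicate 1 is the lowest WD bar in both sets of falls.

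Stronger rises under water deficit were fewer. Of the genes called higher in WD+HS, 76 had a positive interaction, with a median log2 fold change of 0.82, and their summed level was 26378 to 27805 CPM in WD+HS, 16491 to 19104 CPM in WD, 13941 to 16375 CPM in HS and 15089 to 16307 CPM in CT. In 36 of them the WD mean was above the CT mean. These levels and this count follow in part from choosing the 76 genes on the same values, and the share over all genes was not counted. The HSP20-like gene GLYMA_14G063800 had 43.2, 36.8 and 30.7 CPM in HS and 1.95, 0.453 and 1.21 CPM in CT, an interaction of 2.27 ± 0.45 (adjusted p = 0.0049), and the HSP20-like gene GLYMA_20G213900, at 35.1, 22.8 and 29.7 CPM in WD+HS and 0.286, 0.22 and 0.269 CPM in WD, had 12.7, 14.2 and 11.4 CPM in HS and 1.17, 0.407 and 0.485 CPM in CT (interaction 2.53 ± 0.56). Both of these chaperone genes were thus higher in each WD+HS library than in any HS library. NCED3 (GLYMA_15G250100) had 12.0, 9.94 and 11.3 CPM in HS and 8.41, 8.24 and 6.61 CPM in CT, far below its WD+HS values, and an interaction of 1.32 ± 0.19 (adjusted p = 5.8e-04). A DUF567 gene, GLYMA_01G222600, had 9.43, 9.54 and 10.1 CPM in WD+HS and 5.57, 3.74 and 4.24 CPM in WD, against 0.961, 1.35 and 1.47 CPM in HS and 2.74, 1.54 and 1.21 CPM in CT. Of the 27 positive interactions of at least 8-fold, 22 were in genes with WD+HS replicate 3 over 3 times both other WD+HS libraries, and in all 22 CT replicates 1 and 2 were also over 3 times CT replicate 3. All 22 lack a description, 18 lie on chromosome 13 by identifier, none was called in WD+HS against WD, and none kept the interaction without WD+HS replicate 3, 2 kept it without CT replicate 1 and 1 without CT replicate 2.

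The median heat effect of the chaperone lists was lower under water deficit, as it was in 19 of the 23 lists. All of these members were listed by the study from HS against CT, so the choice itself raises their values in that contrast, and the lower medians say nothing particular to chaperones. Of the 43 small heat shock protein genes, the median log2 fold change was 2.57 in WD+HS against WD and 3.10 in HS against CT, with 7 negative and 2 positive interactions. Of the 9 HSP70, HSP90 and HSP100 genes, the medians were 1.11 and 2.09, with 4 negative interactions and no positive one, and of the 20 co-chaperone genes 0.79 and 1.20, also with 4 negative interactions and no positive one. HSP70B (GLYMA_17G072400) had 323, 350.4 and 291 CPM in HS and 10.7, 8.74 and 13.6 CPM in CT, so that its heat effect was 4.09 ± 0.13 under water deficit and 4.88 ± 0.12 in well-watered flowers (interaction -0.79 ± 0.18, adjusted p = 0.0146). For the second copy, GLYMA_02G205600, the heat effects were 3.11 ± 0.25 and 4.60 ± 0.24 (adjusted p of the interaction 0.0193). An alkenal reductase gene, GLYMA_03G098600, which detoxifies products of lipid oxidation, rose in both water regimes, with 13.0, 10.7 and 9.89 CPM in WD+HS and 7, 2.97 and 4.98 CPM in WD, against 12.7, 18.8 and 20.1 CPM in HS and 0.782, 0.996 and 1.58 CPM in CT. Its log2 heat effects were 1.18 ± 0.25 and 3.94 ± 0.31. The interactions of the other members of these 3 lists did not pass the test, which does not show that they responded alike.

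Some genes were close to the limit of detection in 1 of the groups. Among called genes, 126 had at most 3 reads in each WD+HS library and 58 had at most 3 reads in each WD library. Invertase H, GLYMA_19G227300, a sucrose-cleaving enzyme, had no read in any WD+HS library, against 1.14, 12.3 and 6.20 CPM in the WD libraries, so that it was at least 33.8-fold lower in WD+HS, taking 3 reads per library as the limit. Carbonic anhydrase 2, GLYMA_06G182700, also had no read in WD+HS and 1.79, 3.74 and 5.05 CPM in WD, which made it at least 18.2-fold lower. Polygalacturonase 4, GLYMA_02G016300, a pectin-cleaving enzyme, had 2.64, 1.87 and 1.08 CPM in WD and no read in WD+HS, and was at least 9.62-fold lower. In the other direction, the HSP20-like gene GLYMA_20G078400 had 1.12, 0.848 and 0.607 CPM in WD+HS and no read in WD, being at least 4.44-fold higher. These 4 genes were named after their values were seen, and are not all of the described genes without reads in 1 group. Others were an O-fucosyltransferase gene, GLYMA_02G253400, at least 13.8-fold lower in WD+HS, and EXORDIUM like 2, GLYMA_06G004200, at least 8.42-fold lower. An MtN21-type transporter gene, GLYMA_14G189200, was at least 4.16-fold higher in WD+HS.

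The set of larger falls was heterogeneous among the WD libraries. The 2221 genes lower by at least 2-fold summed to 15284 to 16690.2 CPM in WD+HS, against 36706, 51817 and 48210 CPM in WD replicates 1 to 3, and WD replicate 1 was the lowest WD library for 1258 of them. The 1015 genes higher by at least 2-fold summed to 36311 to 37663 CPM in WD+HS and 13638 to 15319 CPM in WD. Without WD replicate 1, 2243 genes fell and 1179 rose by at least 2-fold, and 941 fell and 332 rose by at least 4-fold.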

How the data were processed

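Whole closed flowers of 12 pools (3 each of WD+HS, WD, HS and CT) were sequenced as paired reads. After trimming (Trim Galore), the authors mapped reads with Hisat2, version 2.2.1 per the labels, on the Glycine max assembly from Ensembl Plants. They deposited a table of unnormalised gene counts and a table of Cufflinks FPKM. The counting program and its use of strand are not given in the sources used here. The deposited FPKM values divide by transcript length and by mapped fragments. The study tested its genes with Cuffdiff, which needs alignments and was not repeated.

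Counts were fitted in R 4.3.3 with edgeR 4.0.16: filterByExpr (minimum count 10), TMM factors and the quasi-likelihood test in 1 fit of 12 libraries in 4 groups, with contrasts WD+HS minus WD, HS minus CT and their difference (the interaction). P-values were adjusted by Benjamini-Hochberg over the 38410 genes tested of 55897, and a gene was called at an adjusted p under 0.05. CPM are TMM-normalised. Fold changes are log2, heated over unheated group, and their standard errors come from the fitted group means and the quasi-likelihood dispersion. A fold against a group without reads is a lower bound against 3 reads per library, which covers counting error only. Replicates are pools of plants from 1 chamber per treatment, and p-values measure the spread between these pools. On simulated WD+HS against WD data of 37896 genes, 92% of rises of log2 size 2 and 62% of rises of log2 size 1 were recovered. In it 3 unchanged genes were called. Only 50 genes were given each of these rises, and the libraries of a group differed at random alone. In the data 30.2% of genes were called, so these rates do not carry over to the real comparison.

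Descriptions came from the study's supplementary gene lists, of which 2464 genes had one (1786 from lists for HS against CT, 678 only from lists for WD against CT), and word searches in them gave 23 lists. All other genes could be named by identifier only, and none of the 55897 identifiers matched the RefSeq table at hand, so no sequences are given. Members of lists and the rules were chosen with earlier results of these data known. Genes were named among those called, with a mean of at least 5 CPM and no overlap of the groups: the 2 largest rises and falls, the 10 largest described rises and falls, the 2 largest changes in each list of 5 or more, the 4 largest described interactions in each direction and the 5 largest CPM differences in each direction. All tested HSF and ABA genes were named as well, whether or not they met these conditions. Alternatives were DESeq2 1.42.0, other scaling factors and filters, a fit of the compared libraries alone, limma 3.58.1 with a trend on FPKM (log2, pseudocounts of 1 and of 0.1), the replicate number as a block, a 2-fold minimum and each library left out.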

Additional observations from a re-analysis of the deposited data

Results flagged for a closer look

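The heat effect differed between water-deficit and well-watered flowers in 1132 genes by the test of the interaction in edgeR, WD+HS minus WD against HS minus CT, at an adjusted p under 0.05. Of the named genes, 25 had such a difference. On the log2 scale the heat effect was more positive under water deficit by 2.53 for GLYMA_20G213900 (HSP20-like chaperones), 2.27 for GLYMA_14G063800 (HSP20-like chaperones), 1.62 for GLYMA_01G222600 (Protein of unknown function (DUF567)), 1.32 for GLYMA_15G250100 (NCED3), 1.14 for GLYMA_17G194100 (Integrase-type DNA-binding) and 1.11 for GLYMA_15G209300 (polygalacturonase inhibiting protein 1). It was more negative under water deficit, with interactions of -5.07 for GLYMA_04G105900 (lipoxygenase 1), -3.52 for GLYMA_13G275700 (no description) and -3.07 for GLYMA_10G149500 (kinesin 4). Next came -2.91 for GLYMA_09G042200 (invertase or pectin methylesterase inhibitor), -2.76 for GLYMA_03G098600 (alkenal reductase) and -2.34 for GLYMA_03G220400 (invertase or pectin methylesterase inhibitor). Further negative interactions were -2.34 for GLYMA_06G110600 (flavonol synthase 1), -2.33 for GLYMA_16G157000 (sucrose-proton symporter 2) and -2.25 for GLYMA_01G042700 (Pectate lyase). Those after them were -2.07 for GLYMA_19G231500 (invertase or pectin methylesterase inhibitor), -1.98 for GLYMA_17G103700 (H(+)-ATPase 8) and -1.90 for GLYMA_09G027300 (FAD-binding Berberine). The remaining ones were -1.76 for GLYMA_04G179500 (Gibberellin-regulated), -1.56 for GLYMA_10G029600 (HSFA6B), -1.49 for GLYMA_02G205600 (heat shock protein 70B), -1.32 for GLYMA_18G295100 (Nodulin MtN3), -1.22 for GLYMA_04G052000 (HSFA2), -0.79 for GLYMA_17G072400 (heat shock protein 70B) and -0.76 for GLYMA_08G096200 (NCED5). The number of interactions without WD replicate 1 is given in the report and under the processing alternatives.

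The FPKM table holds 1250 noncoding RNA features that are not in the count table and were not used in the comparisons. Of the 297 with enough signal, limma on log2(FPKM + 1) called 3 in WD+HS against WD, all higher, which is 1.01% of them, and 12 had an unadjusted p under 0.05.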

How the results depend on the processing

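The calls in WD+HS against WD held up under other settings better in number than in detail. Of 11592 called genes, 11439 were also among the 11826 called by DESeq2, and counts under the other scalings, the other filters and the fit of the compared libraries alone lay between 10095 and 11590. At a minimum of 2-fold, 3236 genes were called in WD+HS against WD and 2713 in HS against CT. On FPKM values with pseudocounts of 1 and 0.1, limma called 9985 and 9917 genes in WD+HS against WD, 65.5% and 65.9% of them lower against 54.5% on counts, and in HS against CT 38.2% and 38.0% of its calls were lower, against 50.2% on counts. The interaction was called in 363 and 447 genes on these FPKM values, against 1132 on counts and 1435 by DESeq2, and the median interaction over all genes lay at -0.12 and -0.14 there, while negative interactions made up at least 78.1% of the calls under every setting tried. Leaving out 1 library at a time gave 9518 to 11570 calls in WD+HS against WD, 9863 to 13260 in HS against CT and 761 to 1581 interactions, the highest without WD replicate 1.

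The replicate numbers do not mark pairs in the labels. Same-numbered WD+HS and WD libraries deviated together with correlations of 0.044, 0.096 and 0.11, only 1 of them over 0.1, although each of the 6 libraries correlated best with its own number, a hint from the data and not from the design. A fit with the replicate number as a block called 11273 genes in WD+HS against WD (11073 of them shared), 12008 in HS against CT and 1036 interactions.

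Of the 96 named genes 85 were called, all 85 kept their direction under the 22 alternatives, and 77 kept the call under each alternative in which they were tested. A further 5 lost it only under the 2-fold minimum. The others were AFP3 (GLYMA_01G060300), lost under 11, the ABI1-like gene (GLYMA_15G172500), lost under 10, and HSFA3 (GLYMA_10G066100), lost under 3. The causes of these shifts were not tested.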
